A study of Mus musculus with 19 samples.

Results

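The 10 genes described here mark classes of inhibitory interneurons, and their expression was followed by RNA-seq of the left prelimbic cortex (PrL) of mice. They were taken as a fixed list of 10 symbols (Pvalb, Sst, Vip, Npy, Cck, Reln, Calb2, Lhx6, Sncg and Tac3) from the 20938 genes of the deposited count table. Of these, 9 stood in the table under their own symbol. Tac3 was found as Tac2, the mouse symbol to which RefSeq gives that name as a synonym, and is called Tac2 below. The 19 libraries fell into 4 groups. Control mice (n = 6) received saline and SCZ mice (n = 4) received MK-801, an NMDA receptor blocker, at 0.2 mg/kg, each injected intraperitoneally once daily for 2 weeks. Control+c-MSST (n = 5) and SCZ+c-MSST mice (n = 4) had the same injections and also c-MSST, in which ferumoxytol iron oxide (SPIO) nanoparticles were placed once into the left PrL by stereotactic surgery and a pulsed magnetic field was applied. Tissue was taken on day 3 after surgery, and whether mice without c-MSST were operated on is not stated in the labels. Strain, sex and age are not given in the sources used here, and nothing states that each library came from a separate animal, so the p-values below measure the spread between these libraries only.

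Cortical interneurons release GABA and fall into classes named after the peptides or calcium-binding proteins they make. Cells born in the medial ganglionic eminence depend on the transcription factor Lhx6 and become parvalbumin or somatostatin cells, which inhibit the cell bodies and the dendrites of pyramidal neurons. Cells born in the caudal ganglionic eminence include the VIP cells, which largely inhibit other interneurons, the reelin-rich neurogliaform cells, and the cholecystokinin basket cells, in which Sncg is a marker. The separation is incomplete in bulk tissue: pyramidal neurons also carry Cck mRNA, and GABA-related genes are shared with the spiny neurons of the neighbouring striatum. Fewer cells of a class and less RNA per cell cannot be told apart in these data.

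Somatostatin, VIP and cholecystokinin are peptides whose genes can respond to cyclic AMP through the element TGACGTCA. Promoter stretches are shown for the 3 members in which the search found this element or a part of it. Npy and Tac2, which also encode peptides, held neither form in this window. RefSeq promoter windows (GRCm38.p6, the patch release of the mm10 build) were matched for 9 of the 10 genes, the exception being Calb2. In the 250 bases upstream of the start, both strands were searched for TGACGTCA and for its overlapping ends TGACG and CGTCA. Stretches of 30 bases are given 5′ to 3′ on the gene's strand, with the match in capitals.
Sst: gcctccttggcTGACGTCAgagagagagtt
Vip: gggatcactactgTGACGtctttcggggag
Cck: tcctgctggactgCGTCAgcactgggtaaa
The Sst stretch lies on the minus strand of chromosome 16 at chr16:23890874-23890903, from 59 to 30 bases upstream of the RefSeq start, and inside the longer GENCODE M21 model of the gene. The Vip stretch is on the plus strand at chr10:5639126-5639155, from 92 to 63 bases upstream, and the Cck stretch is on the minus strand at chr9:121495725-121495754, from 60 to 31 bases upstream. The full element was present in 1 of 9 matched genes (Sst) and either form in 3 of 9. Among 32851 windows of the same length, 1.55% held the full element and 17.8% held either form.

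Expression is given as CPM, counts scaled to the total of the library, after TMM scaling, which corrects for differences in library composition. Library totals ran from 50140626 to 82416746 counts, the highest correlation between any 2 libraries was 0.981, and all 10 genes passed the filter on low counts. The lowest member count in any library was 56, for Sncg. Markers of cortical pyramidal neurons (7 genes, Slc17a7 among them) summed to 4885 to 7726 CPM, and markers of other tissue were present as well. Markers of striatal spiny neurons (11 genes) summed to 259 to 2232 CPM in Control, 361 to 1868 in Control+c-MSST, 1741 to 2553 in SCZ and 1181 to 2946 in SCZ+c-MSST. Control replicates 2 and 3 held 1607 and 149.6 CPM of Ttr, the choroid plexus transthyretin gene, and stand apart in this respect.

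Compared per kilobase of the longest GENCODE M21 transcript, mean levels over the 19 libraries ran from 169.6 CPM per kb for Cck and 131.3 for Sst through 56.7 for Npy, 30.7 for Pvalb, 18.96 for Reln, 16.2 for Vip, 10.1 for Calb2, 5.50 for Lhx6 and 4.71 for Tac2 to 1.94 for Sncg. The deposited FPKM values gave another order, with Reln highest at a mean of 78.6 against 26.1 for Cck. The ratio of CPM to FPKM was 2.83 for Reln, whose longest transcript measures 11.7 kb, and 13.8 for Tac2, at 0.852 kb. FPKM was therefore not used to set one gene against another.

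The genes differed much in how far the libraries scattered. Over all 19 libraries, Sst (highest library 1.37-fold of the lowest) and Lhx6 (1.43-fold) were the steadiest members, and Calb2 (4.12-fold), Sncg (3.90-fold) and Npy (3.55-fold) the most variable. Among 14051 genes with a mean of at least 1 CPM, the within-group SD of log2 CPM stood at the 39.5th percentile for Sst and the 48.1th for Lhx6. For Pvalb it stood at the 83.8th, for Npy at the 89.5th, for Sncg at the 91.8th and for Calb2 at the 93.6th. Comparisons of Sst and Lhx6 had narrower intervals than those of the other members.

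**Figure D1:**
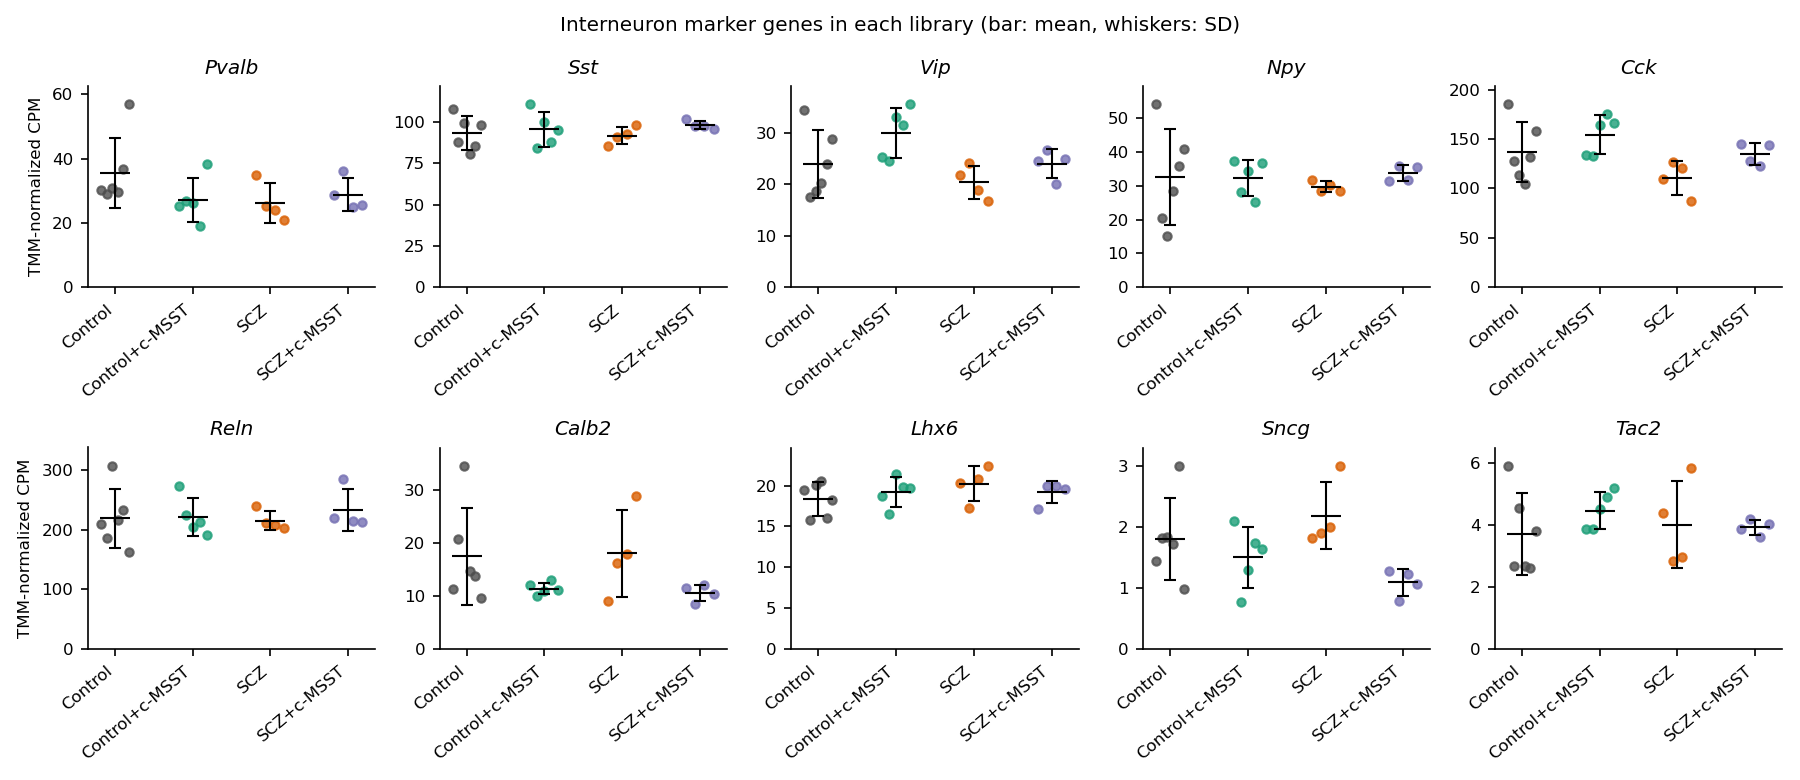
TMM-normalized CPM of the 10 marker genes in each of the 19 libraries, by group; points are libraries, horizontal bars group means and whiskers 1 SD. Sst and Lhx6 overlap closely in the 4 groups, Control replicate 7 stands alone for Pvalb at 56.9 CPM, and the SCZ+c-MSST libraries lie below the SCZ libraries for Sncg.

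None of the 10 genes passed edgeR's quasi-likelihood test at an adjusted p under 0.05 in any of the 5 comparisons, nor did any under DESeq2, limma voom or limma on FPKM. Over all 16417 genes tested, the share called was 0% for SCZ against Control, 0% for SCZ+c-MSST against Control+c-MSST, 0.329% for Control+c-MSST against Control, 0% for SCZ+c-MSST against SCZ and 0% for the interaction, that is, the c-MSST difference under MK-801 less the one under saline. At an unadjusted p under 0.05, Cck alone was lower in SCZ than in Control, where 13.5% of all genes passed and 7.43% were lower. Calb2 and Sncg were lower in SCZ+c-MSST than in SCZ, against 7.56% of all genes, 3.70% being lower. For the other 3 comparisons the count was 0 of 10, where 11.0% (SCZ+c-MSST against Control+c-MSST), 16.6% (Control+c-MSST against Control) and 7.29% (interaction) of all genes passed. The members' median log2 fold changes were -0.03, -0.06, 0.02, 0.11 and -0.02 in the order given above, beside all-gene medians between -0.0114 and 0.00147. Comparisons with a group in common share its libraries and are given side by side without any measure of agreement.

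**Figure D2:**
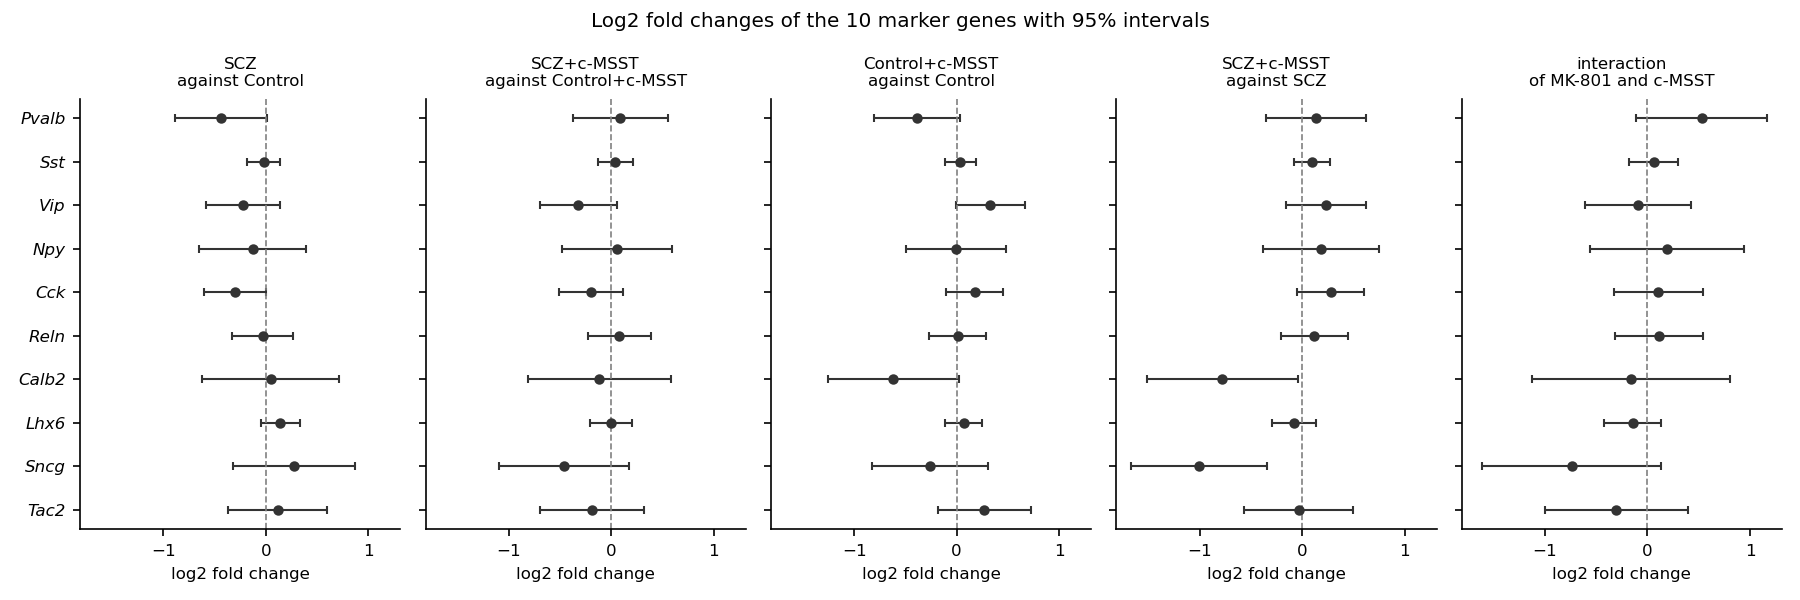
Log2 fold changes of the 10 marker genes in the 5 comparisons, with points for the edgeR estimates and whiskers for 95% intervals; the dashed line marks no change. Intervals are narrow for Sst and Lhx6, wide for Calb2 and Sncg, and the lowest estimate is that of Sncg in SCZ+c-MSST against SCZ, at -1.0.

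Sst (chr16:23889573-23890958, minus strand, mm10 as are those below) encodes somatostatin, the inhibitory peptide of dendrite-targeting interneurons, and its group means lay close together. In Control the lowest, median and highest values were 80.8, 93.1 and 108 CPM. Control+c-MSST libraries held 111, 84.2, 100.3, 88.0 and 95.3 CPM, SCZ libraries 85.8, 90.8, 92.9 and 97.9, and SCZ+c-MSST libraries 102, 97.7, 97.6 and 95.8. The groups overlapped throughout. Group means ran from 91.8 ± 5.04 CPM in SCZ (SD, n = 4) to 98.2 ± 2.57 in SCZ+c-MSST (SD, n = 4), a ratio of 1.07. The 95% intervals of the log2 fold change were -0.19 to 0.14 for SCZ against Control, -0.13 to 0.21 for SCZ+c-MSST against Control+c-MSST, -0.12 to 0.19 for Control+c-MSST against Control and -0.08 to 0.28 for SCZ+c-MSST against SCZ. The interval of the interaction was wider, at -0.18 to 0.30.

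Npy (chr6:49822710-49829507, plus strand) encodes neuropeptide Y, which many somatostatin cells and neurogliaform cells release together with GABA. The 6 Control values ran from 15.2 through a median of 32.1 to 54.0 CPM, the widest spread of the groups. Control+c-MSST held 37.2, 28.2, 34.3, 25.1 and 36.7 CPM, SCZ 31.8, 28.4, 30.1 and 28.3, and SCZ+c-MSST 31.5, 35.9, 31.8 and 35.5. The Control range took in every other library. Log2 fold changes lay between -0.13 (SE 0.25, SCZ against Control) and 0.19 (SE 0.35, interaction), and the lowest Control values were those of replicates 2 and 3. The ratio of Npy to Sst averaged 0.346 ± 0.130 in Control (SD, n = 6), 0.337 ± 0.0356 in Control+c-MSST (SD, n = 5), 0.324 ± 0.0343 in SCZ (SD, n = 4) and 0.343 ± 0.0307 in SCZ+c-MSST (SD, n = 4).

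Vip (chr10:5639218-5647617, plus strand) encodes vasoactive intestinal peptide, the mark of interneurons that inhibit other interneurons. Its lowest, median and highest Control values were 17.5, 22.1 and 34.4 CPM, while Control+c-MSST libraries held 25.3, 24.5, 33.2, 31.5 and 35.6. SCZ libraries held 21.7, 24.2, 19 and 16.8 CPM and SCZ+c-MSST libraries 24.5, 26.6, 20.1 and 25.0. Control+c-MSST had the highest mean, 30.02 ± 4.90 CPM (SD, n = 5), and SCZ the lowest, 20.5 ± 3.22 (SD, n = 4), with overlap between Control and every other group. The log2 fold change of Control+c-MSST against Control was 0.33 (SE 0.16, edgeR adjusted p = 0.314), and that of SCZ+c-MSST against Control+c-MSST was -0.32 (SE 0.18, adjusted p = 0.538). Without Control replicates 2 and 3, a setting chosen after the data were seen, the former was 0.16, and with the choroid marker score as a covariate it was 0.02.

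Cck (chr9:121489824-121495694, minus strand) encodes cholecystokinin, made by a class of basket cells and, at lower levels per cell, by many pyramidal neurons. Control libraries ranged from 105 through 129 to 185 CPM, Control+c-MSST held 134, 133, 164, 176 and 166, SCZ 109, 126, 121 and 87.1, and SCZ+c-MSST 145, 128, 122 and 144. SCZ had the lowest mean, 110.9 ± 17.4 CPM (SD, n = 4), against 136.8 ± 29.99 in Control (SD, n = 6), and the groups overlapped. The log2 fold change of SCZ against Control was -0.30 (SE 0.14, 95% interval -0.60 to -0.0022, edgeR adjusted p = 0.366). Pyramidal markers pointed the same way: 7 of 7 had a negative log2 fold change there, with a median of -0.29 and 0 called. SCZ+c-MSST against SCZ gave 0.28 for Cck (SE 0.16, adjusted p = 0.714), and 7 of 7 pyramidal markers were positive in that comparison, with a median of 0.22 and 0 called. Their part in the Cck values was not tested.

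Tac2 (chr10:127724478-127731768, plus strand) encodes neurokinin B, a tachykinin found in a subset of cortical interneurons that overlaps the VIP class. Values in Control ran from 2.62 through 3.25 to 5.91 CPM, Control+c-MSST held 3.87, 3.85, 4.51, 4.90 and 5.19, SCZ 4.40, 2.84, 2.97 and 5.84, and SCZ+c-MSST 3.88, 4.18, 3.60 and 4.02. The groups overlapped. The estimate of largest size among comparisons of 2 groups was 0.27 for Control+c-MSST against Control (SE 0.22, edgeR adjusted p = 0.582), and that of the interaction was -0.30 (SE 0.33, adjusted p = 0.870).

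Pvalb (chr15:78191114-78206400, minus strand) encodes parvalbumin, the calcium buffer of fast-spiking basket and chandelier cells. Control libraries held between 29.05 and 56.9 CPM with a median of 30.6, and the highest value, in replicate 7, stood well above the next, 36.7. Control+c-MSST libraries held 25.4, 26.7, 26.2, 18.98 and 38.3 CPM, SCZ libraries 34.9, 25.2, 23.9 and 20.8, and SCZ+c-MSST libraries 28.7, 36.3, 24.8 and 25.5. In SCZ 3 of 4 libraries, in SCZ+c-MSST 3 of 4 and in Control+c-MSST 4 of 5 lay below the lowest Control library. The remaining library of each group fell within the Control range. The log2 fold change was -0.44 for SCZ against Control (SE 0.21, 95% interval -0.89 to 0.01, edgeR adjusted p = 0.381) and -0.39 for the saline groups with and without c-MSST (SE 0.20, adjusted p = 0.339). Leaving out Control replicate 7 brought these estimates to -0.26 and -0.21. In mice with c-MSST the effect of MK-801 was 0.09 (SE 0.22), in MK-801 mice the effect of c-MSST was 0.14 (SE 0.23), and the interaction was 0.53 (SE 0.30, adjusted p = 0.738).

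Calb2 (chr8:110137502-110168210, minus strand) encodes calretinin, a calcium-binding protein of many VIP cells that is also abundant in thalamic and other subcortical neurons. Control libraries ranged from 9.57 through 14.3 to 34.5 CPM, and SCZ libraries held 9.10, 16.2, 17.8 and 28.9. Both c-MSST groups were tightly grouped at the low end, with 11.9, 10.0, 10.8, 12.9 and 11.1 CPM in Control+c-MSST and 11.4, 8.38, 12.0 and 10.3 in SCZ+c-MSST. All 9 of these libraries fell within the range of the libraries without c-MSST, apart from 1 at 8.38. The log2 fold change was -0.78 for SCZ+c-MSST against SCZ (SE 0.35, 95% interval -1.52 to -0.04, edgeR adjusted p = 0.636) and -0.62 for Control+c-MSST against Control (SE 0.30, adjusted p = 0.316). Single high libraries weighed on these sizes: without SCZ replicate 5 the former was -0.45, and without Control replicate 3 the latter was -0.30.

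The libraries high in Calb2 were also high in thalamic markers and, in Control, in choroid markers, though not in those of every other region. Control replicates 2 and 3, at 20.7 and 34.5 CPM of Calb2, had summed levels of 4 thalamic markers of 88.8 and 65.9 CPM, the highest values in Control, where the lowest was 43.4. Their striatal sums were low, at 321.7 and 258.7 CPM, beside a Control median of 865. In septal markers replicate 3 was low, at 27.9 CPM beside a Control median of 46.4, and replicate 2 was high, at 64.8. Sums of 10 choroid plexus and ependymal markers were 1772 CPM in replicate 2 and 178.3 in replicate 3. These were the highest of the series, beside a Control median of 32.6. SCZ replicate 5, at 28.9 CPM of Calb2, had the highest thalamic sum of its group, 76.8 CPM, and the highest sum of 7 septal markers in the series, 94.4. Thalamic sums were 34.0 to 57.2 CPM in Control+c-MSST and 41.2 to 53.7 in SCZ+c-MSST. With the choroid marker score as a covariate, the Calb2 estimates were -0.54 for SCZ+c-MSST against SCZ and -0.18 for Control+c-MSST against Control. With the septal score they were -0.82 and -0.63. Beyond these values, the part of other tissue in the Calb2 levels was not tested.

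Lhx6 (chr2:36081953-36105408, minus strand) encodes the LIM-homeodomain factor that parvalbumin and somatostatin cells keep into adulthood. The Control libraries lay at 15.7 (lowest), 18.8 (median) and 20.5 CPM (highest), Control+c-MSST held 18.7, 16.5, 21.4, 19.8 and 19.7, SCZ 20.4, 17.3, 20.9 and 22.4, and SCZ+c-MSST 17.2, 20.01, 19.99 and 19.6. Group means ran only from 18.3 ± 2.06 CPM in Control (SD, n = 6) to 20.2 ± 2.17 in SCZ (SD, n = 4), with overlap throughout. The estimate for SCZ against Control was 0.14 (SE 0.09, 95% interval -0.05 to 0.34, edgeR adjusted p = 0.537), and that for SCZ+c-MSST against SCZ was -0.08 (SE 0.10).

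Reln (chr5:21884454-22344702, minus strand) encodes reelin, the secreted glycoprotein that neurogliaform and some somatostatin cells release into the matrix. Control libraries ranged from 163 through 213 to 307 CPM, Control+c-MSST held 273, 224, 204, 212 and 191, SCZ 239, 210.3, 207 and 203, and SCZ+c-MSST 219.8, 286, 214 and 214. The groups overlapped, and their means lay between 214.9 ± 16.2 CPM in SCZ (SD, n = 4) and 233 ± 35.0 in SCZ+c-MSST (SD, n = 4). Log2 fold changes were between -0.03 (SE 0.14, SCZ against Control) and 0.12 (SE 0.15, SCZ+c-MSST against SCZ).

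Sncg (chr14:34370274-34374789, minus strand) encodes gamma-synuclein, a small synaptic protein that marks cholecystokinin basket cells among interneurons, and it was the member of lowest level. Levels in Control ran from 0.985 through 1.78 to 3.01 CPM, and Control+c-MSST held 2.10, 0.771, 1.296, 1.73 and 1.63. SCZ libraries held 1.83, 1.90, 2.01 and 3.01 CPM, and every SCZ+c-MSST library, at 1.28, 0.787, 1.22 and 1.07, lay below them. This was the only member and comparison in which the groups did not overlap, beside 8.28% of all genes in SCZ+c-MSST against SCZ, 3.78% being lower. In SCZ against Control, where 2.84% of all genes had groups that did not overlap, and in SCZ+c-MSST against Control+c-MSST (4.67%) and Control+c-MSST against Control (1.60%), the members' count was 0. The log2 fold change of Sncg was -1.0 (SE 0.32, 95% interval -1.67 to -0.34, edgeR adjusted p = 0.432). Septal markers pointed the same way: 7 of 7 had negative log2 fold changes in SCZ+c-MSST against SCZ, with a median of -1.04 and 0 called, and summed to 32.8 to 94.4 CPM in SCZ and 27.1 to 33.8 in SCZ+c-MSST. So did 10 of 10 choroid markers (median -0.78) and 10 of 11 striatal markers (median -0.22), while 7 of 7 pyramidal markers were positive. With the septal score as a covariate the Sncg estimate was -0.64, and without SCZ replicate 5 it was -0.81. Beyond these values, the part of other tissue in the Sncg levels was not tested. The interaction was -0.74 (SE 0.42, adjusted p = 0.722).

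Members were then compared with each other over the 19 libraries after group means had been removed, so that the correlations describe how libraries of one group differ. Of 45 pairs, 2 passed at an adjusted p under 0.05 (two-sided, 100000 permutations within groups). Vip and Cck rose and fell together, with r = 0.84 (p = 0.00038, adjusted p = 0.0142) and rho = 0.79 (p = 0.00121, adjusted p = 0.0274), and lay on the same side of their group means in 15 of 19 libraries. Leaving out the 2 libraries farthest from the median of Vip gave r = 0.83. Npy and Calb2 went in opposite directions, with r = -0.74 (p = 0.00063, adjusted p = 0.0142) and rho = -0.72 (p = 0.00122, adjusted p = 0.0274), and lay on the same side in 5 of 19 libraries. That relation rested more on single libraries: r was -0.56 without the 2 farthest libraries. Its adjusted p was 0.0803 without Control replicate 2, 0.0930 without Control replicate 3 and 0.0547 without Control replicate 4.

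**Figure D3:**
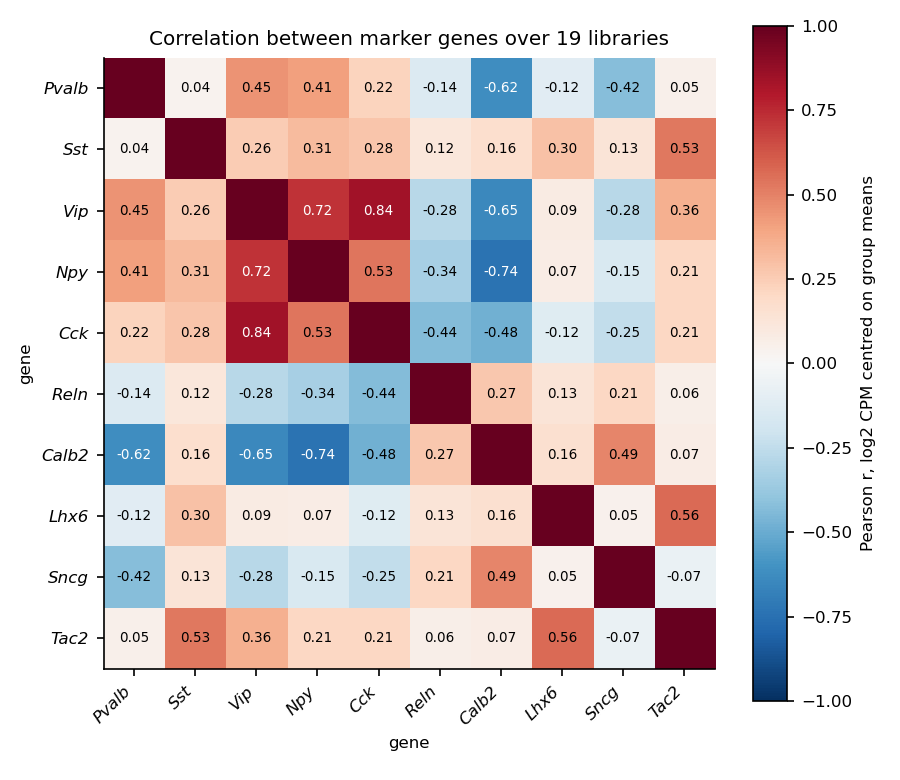
Pearson r between the 10 marker genes over 19 libraries, from log2 CPM centred on group means; red is positive and blue negative. Vip, Npy and Cck have positive r with each other (0.53 to 0.84), and Calb2 is negative against Pvalb, Vip, Npy and Cck (-0.74 to -0.48). Of all pairs, only Vip with Cck and Npy with Calb2 passed the permutation test at an adjusted p under 0.05.

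**Figure D4:**
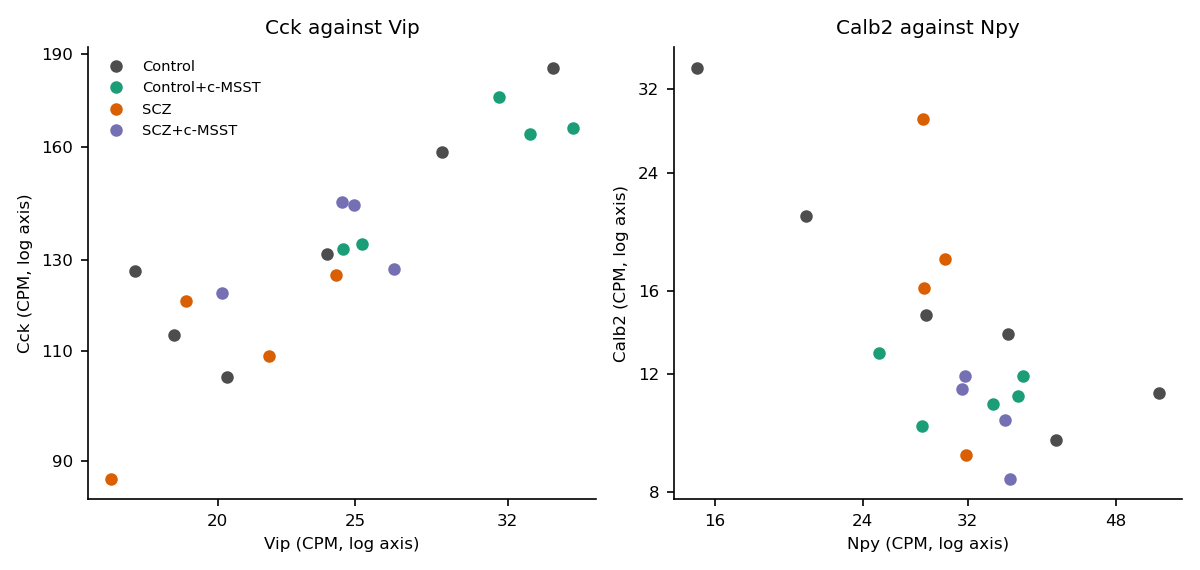
CPM of Cck against Vip (left) and of Calb2 against Npy (right) in the 19 libraries, on log axes, coloured by group. The first pair rises along a line through the 4 groups, while in the second the Control library lowest in Npy (15.2 CPM) is the highest in Calb2 (34.5 CPM).

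At an unadjusted p under 0.05, 8 of the 45 pairs passed, among them Vip and Npy (r = 0.72, adjusted p = 0.133) and Pvalb and Calb2 (r = -0.62, adjusted p = 0.133). Sst and Lhx6, which share the medial ganglionic eminence lineage, correlated at 0.30, and Pvalb and Lhx6 at -0.12. In a further set of 20 tests, chosen after the data were seen, each member was set against a striatal and a pyramidal marker score. Only Cck with the pyramidal score passed, at r = 0.88 (permutation p = 5e-05, adjusted p = 0.001), rho = 0.88 (adjusted p = 0.0006) and r = 0.82 without the 2 farthest libraries. Vip with that score gave r = 0.69 (adjusted p = 0.0894). The 10 correlations with the striatal score did not pass, with r between -0.43 for Calb2 and 0.52 for Npy.

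For each member, the 3 genes whose log2 CPM followed it most closely over the 19 libraries were found among 14050 others, as a description with no test. Pvalb was nearest to Kcnab3 (r = 0.91), a potassium channel beta subunit, Lynx1 (0.88), a modulator of nicotinic receptors, and Vamp1 (0.86), a synaptic vesicle protein. Calb2 was nearest to Tmem255a (0.88), Myt1 (0.87) and Nnat (0.86). Vip was nearest to Smarca2 (0.94), Lasp1 (0.93) and Olfm2 (0.93), and Cck to Megf9 (0.94), Gabbr2 (0.93), a GABA-B receptor subunit, and Rimbp2 (0.92). Npy was nearest to Arhgap42 (0.91), Cabp1 (0.90) and Map1a (0.90), and Reln to Nlgn1 (0.87), 1700001K19Rik (0.80) and Chst11 (0.77).

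The steady and the low genes had no such close companions. Sst was nearest to Hcfc1r1 (0.78), Lsm2 (0.77) and Dazap1 (0.76), and Lhx6 to Ccdc126 (0.74), Fam168b (0.72) and Macroh2a2 (0.69). Sncg was nearest to Gpr165 (0.75), Ret (0.73) and Uspl1 (0.72), and Tac2 to Vegfd (0.76), Cdr1 (0.72) and Fxyd5 (0.70).

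Companion genes were read from lists of 63 genes, which held genes of the same cells and 17 receptor-related genes for the markers' peptides and reelin. Those 17 need not belong to the same cells. By edgeR, 0 of 63 were called in any of the 5 comparisons. At an unadjusted p under 0.05, 13 were higher and 12 lower in SCZ than in Control, where 6.09% of all genes were higher and 7.43% lower. MK-801 in mice with c-MSST gave 7 higher and 5 lower (all genes 5.46% and 5.51%), and c-MSST in saline mice 5 and 5 (7.86% and 8.70%). For c-MSST in MK-801 mice the counts were 4 and 2 (3.86% and 3.70%), and for the interaction 2 and 1 (3.90% and 3.39%). DESeq2 called Slc32a1, Satb1 and Gad2 in SCZ against Control, Prox1 in Control+c-MSST against Control and Dlx1 in SCZ+c-MSST against SCZ, and limma voom called Dlx1.

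The 4 genes of GABA synthesis and transport all had positive log2 fold changes in SCZ against Control, with a median of 0.47 and 0 called, while the subtype markers did not share a direction (4 positive, 6 negative). Slc32a1, the vesicular GABA transporter, averaged 97.8 ± 12.1 CPM in SCZ (SD, n = 4) and 60.8 ± 16.5 in Control (SD, n = 6). Its log2 fold change was 0.69 (SE 0.17, edgeR adjusted p = 0.150), and its groups did not overlap, beside 2.84% of all genes. Gad2, the GABA-producing enzyme of nerve terminals, averaged 184.5 ± 33.3 against 113 ± 36.3 CPM (0.71, SE 0.20, adjusted p = 0.182). Gad1, the enzyme of the cell body, gave 0.25 (SE 0.10, adjusted p = 0.291). Without Control replicate 4, Slc32a1 (adjusted p = 0.0464) and Gad2 (0.0486) passed, while over all settings their adjusted p ran from 0.0184 and 0.0310 with DESeq2 to 0.99989 with the septal score as a covariate.

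Striatal markers, which belong to other GABA cells, pointed the same way: 11 of 11 had positive log2 fold changes in SCZ against Control, with a median of 1.14 and 0 called. With the striatal score as a covariate, the estimates for Slc32a1 and Gad2 were 0.38 and 0.38, and with the septal score 0.28 and 0.21. Gad1 was at 0.11 and 0.07 with these scores. The Sst estimate was -0.02 without a covariate, -0.0145 with the striatal score and 0.0199 with the septal score. Beyond these values, the part of other tissue in the levels of Slc32a1, Gad2 and Gad1 was not tested.

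**Figure D5:**
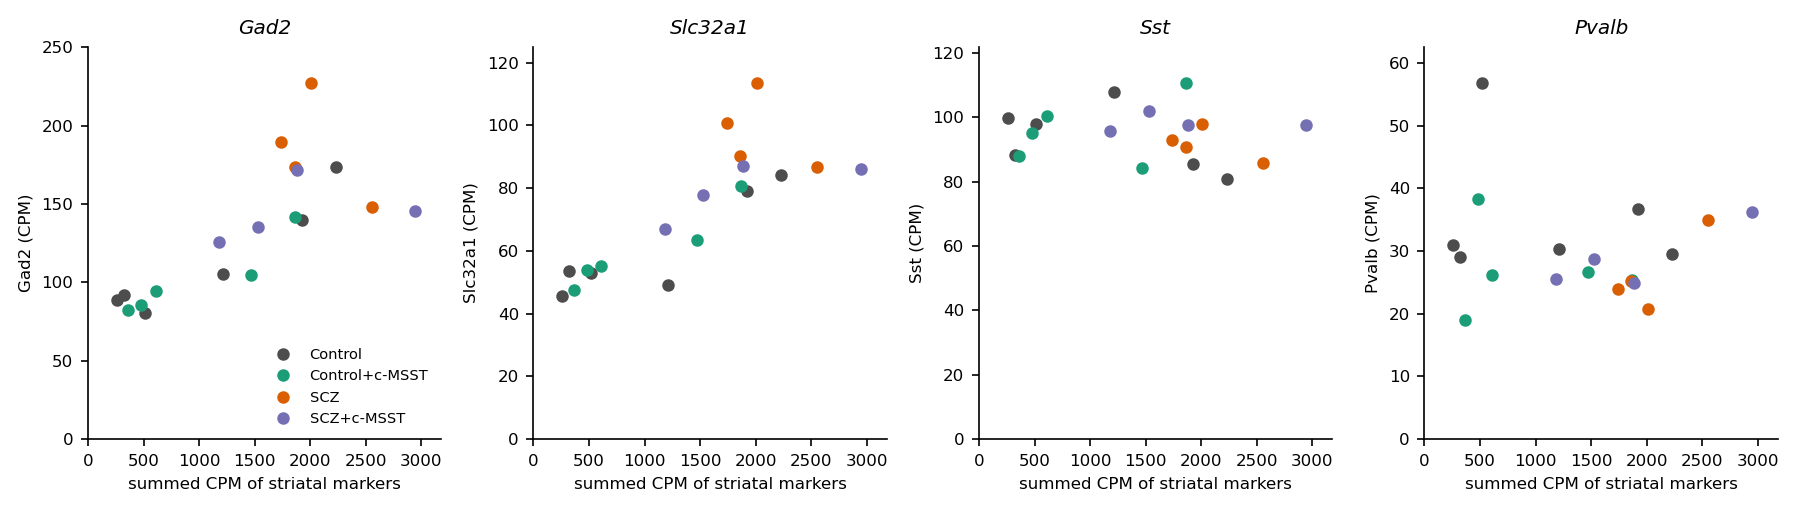
CPM of Gad2, Slc32a1, Sst and Pvalb against the summed CPM of 11 striatal markers in the 19 libraries, coloured by group. Across the series Gad2 and Slc32a1 tend to be higher in libraries with more striatal RNA, but not within every group. In SCZ, replicate 1 has the highest striatal sum (2553 CPM) and the lowest Gad2 (147.8 CPM) and Slc32a1 (86.7 CPM). Sst stays between 80.8 and 111 CPM along the axis.

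Among the medial ganglionic eminence genes, Satb1, a chromatin organizer needed by maturing somatostatin cells, averaged 86.3 ± 5.31 CPM in SCZ (SD, n = 4) and 133.5 ± 33.0 in Control (SD, n = 6), with a log2 fold change of -0.63 (SE 0.15, edgeR adjusted p = 0.148). Its adjusted p was 0.0451 without Control replicate 4 and ran from 0.00942 with DESeq2 to 0.99989 with the septal score, where the estimate was -0.28 (-0.34 with the striatal score). Sox6, which acts downstream of Lhx6, gave -0.11 (SE 0.06). In all, 6 of 10 genes of that lineage were positive and 4 negative, with Dlx1, a factor of early interneuron development, at 0.39 (SE 0.13). Dlx1 had the smallest p of any companion in SCZ+c-MSST against SCZ, at -0.61 (SE 0.15, adjusted p = 0.240). Its groups did not overlap there, beside 8.28% of all genes, 3.78% being lower. In that comparison 7 of 7 septal (median -1.04), 10 of 10 choroid (-0.78) and 10 of 11 striatal markers (-0.22) were also negative. The 7 of 7 pyramidal markers were positive. The part of other tissue in the Dlx1 levels was not tested. In SCZ+c-MSST against Control+c-MSST, Dlx2 was at 0.63 (SE 0.21, adjusted p = 0.323).

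Of the 5 caudal ganglionic eminence genes, 4 were negative in SCZ against Control, as were 4 for c-MSST in saline mice. Prox1, a homeobox factor of that lineage, averaged 26.7 ± 20.4 CPM in Control (SD, n = 6) against 11.4 ± 1.40 in Control+c-MSST (SD, n = 5), at -1.23 (SE 0.36, edgeR adjusted p = 0.118). Its Control libraries had a median of 16.04 CPM and a highest value of 63.04. The estimate was -0.77 without Control replicate 2, -0.35 without Control replicates 2 and 3, -0.74 with voom and -0.65 on FPKM with a pseudocount of 1. Choroid plexus markers moved with it, with 10 of 10 negative in this comparison and a median of -2.41, as did 3 of 4 thalamic markers (median -0.52). With the choroid score as a covariate, the Prox1 estimate was -0.29. The part of other tissue in the Prox1 levels was not tested beyond these values. Adarb2, another marker of the lineage, gave -0.10 (SE 0.10) and -0.12 (SE 0.09) in these comparisons.

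The class-specific lists gave small medians in SCZ against Control, apart from the VIP list. Genes of parvalbumin cells had 1 positive and 7 negative values with a median of -0.06, and the most abundant were Kcnc1, a fast potassium channel, at -0.08 (SE 0.07) and the neuregulin receptor Erbb4 at -0.01 (SE 0.05). Ppargc1a, a coactivator that parvalbumin cells need, had the smallest p of any companion in the interaction, at 0.25 (SE 0.09, edgeR adjusted p = 0.593). Genes of somatostatin cells had a median of -0.11, with Nos1 at -0.19 (SE 0.19) and Calb1 at 0.05 (SE 0.09). Neurogliaform genes had a median of 0.0034, with Lamp5 at -0.12 (SE 0.23) and Id2 at 0.06 (SE 0.08), and the 3 genes of cholecystokinin basket cells a median of -0.18, with the cannabinoid receptor Cnr1 at -0.18 (SE 0.32) and Slc17a8 at 0.49 (SE 0.22). The 3 further genes of VIP cells had a median of 1.23, set by Penk (1.23, SE 0.75) and Chat (1.55, SE 0.69), which the striatum also expresses.

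Receptors for the markers' peptides and for reelin showed 5 positive and 12 negative values of 17 in SCZ against Control, with a median of -0.09. The most abundant were Adcyap1r1, the PACAP receptor, which binds VIP weakly, at -0.09 (SE 0.08), and Dab1, the intracellular adaptor of reelin signalling, at -0.15 (SE 0.09). The somatostatin receptor Sstr1 had the smallest p among companions that were higher in Control+c-MSST than in Control (0.33, SE 0.11, edgeR adjusted p = 0.153). Sstr2 had the smallest among those lower in SCZ+c-MSST than in Control+c-MSST (-0.30, SE 0.11, adjusted p = 0.353).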

How the data were processed

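For 19 libraries, prepared from total RNA with a strand-keeping kit, the authors deposited estimated counts for each gene and, in a second table, FPKM values that the authors had scaled to length and depth, as the unit's name says. The submitters' processing notes name fastp 0.19.5, STAR 2.7.7a, Picard 2.18.29, StringTie 1.3.5 and the build mm10. The annotation, the order of steps and the use of strand are not given in the sources used here, so reads of overlapping or antisense genes may be shared. Of the gene names beside the FPKM values, 11 had been turned into dates and were restored.

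Counts were tested with edgeR 4.0.16 (R 4.3.3) after filterByExpr and TMM scaling, in a quasi-likelihood model with 1 coefficient per group over all libraries, with Benjamini-Hochberg adjustment over 16417 genes. The procedure was tested on simulated data in which every gene had the same spread beyond counting error. The planted changes there were larger than any member estimate. That test therefore cannot tell how well changes of the members' size would be found. DESeq2 1.42.0, limma 3.58.1 (voom, and log2 FPKM with a pseudocount of 1 or 0.1), other normalizations and filters, marker scores as covariates and leaving out each library were the alternatives. A marker score is the mean of a list's log2 CPM (prior count 2), each gene centred over the libraries. At these depths 3 counts, the limit that a count of 0 allows, equal 0.0349 to 0.0620 CPM, for counting error only. Members and lists were chosen with earlier results of these data known. Named genes are the members, the 3 genes nearest to each in r, the 2 companions of highest mean CPM in each list, and per comparison, the companion of smallest p among those higher and among those lower. Gad2, Slc32a1, Chat, Penk, Ttr and Slc17a7 were named with their values in view where that rule did not take them. Some companions that the rule takes are counted in their lists but not reported here by name.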

Additional observations from a re-analysis of the deposited data

Results flagged for a closer look

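In 4 of the 40 groups of member values tested for a stray library (10 genes in 4 groups), the extreme library stood apart from the others by Dixon's criterion, which chance meets in about 1 in 20 groups. Pvalb was highest in Control replicate 7, at 56.9 CPM against 36.7 in the next library. Sncg was highest in SCZ replicate 5, at 3.01 against 2.01 CPM. Reln was highest in SCZ+c-MSST replicate 3, at 286 against 219.8 CPM, and Lhx6 was lowest in SCZ+c-MSST replicate 2, at 17.2 against 19.6 CPM.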

How the results depend on the processing

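The count of members called stayed at 0 in all 124 recounts under 33 other settings, with the smallest adjusted p at 0.0915. Of 670 member estimates under 14 settings that left out no single library, 619 kept their direction and 51 reversed, none larger than 0.23 in size; of 570 with 1 library left out, 534 kept it and 36 reversed, none larger than 0.28. The same-number check does not pair the libraries: of 19 pairs with a shared replicate number, 1 had deviations correlated above 0.1 (range -0.0958 to 0.139). With the replicate number as a block, estimates changed sign for Npy (0.020) and Calb2 (-0.051) in SCZ against Control, Reln (-0.069) and Lhx6 (0.0046) in SCZ+c-MSST against Control+c-MSST, Npy in Control+c-MSST against Control (0.069), Tac2 in SCZ+c-MSST against SCZ (0.11) and Vip in the interaction (0.034), and the 54 genes called over the whole table in Control+c-MSST against Control became 0.

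Other reversals were as follows, with pairs of FPKM values for pseudocounts of 1 and 0.1. In SCZ against Control, the septal score gave Sst 0.020 and Sncg -0.084, voom gave Sst 0.014, FPKM gave Sst 0.019 and 0.020, Npy 0.0092 and 0.026, and Reln 0.033 and 0.033, and leaving out Control replicates 2 and 3 together gave Reln 0.062. For MK-801 in mice with c-MSST, Lhx6 became 0.0033 with a mean CPM of at least 1 and 0.015, 0.014 and 0.015 with the striatal, septal and choroid scores, the striatal score gave Npy -0.23 and Calb2 0.20, and FPKM gave Sst -0.050 and -0.051, Npy -0.020 and -0.022, and Reln -0.017 and -0.017. For c-MSST in saline mice, Npy became 0.067 (striatal), 0.018 (septal), 0.11 (voom), 0.14 and 0.17 (FPKM), the choroid score gave Sst -0.016, Cck -0.032 and Lhx6 -0.014, and voom gave Reln -0.0085. For c-MSST in MK-801 mice, the septal score gave Pvalb -0.059, the choroid score Npy -0.073 and voom Tac2 0.10. In the interaction, Vip became 0.0023 (choroid) and 0.072 (without those Control libraries), and FPKM gave Sst -0.069 and -0.072, Npy -0.029 and -0.048, Cck -0.034 and -0.034, and Reln -0.049 and -0.050. The causes were not tested.

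With 1 library left out, ranges that crossed 0 were, in SCZ against Control, -0.28 to 0.36 for Calb2, -0.28 to 0.073 for Npy, -0.10 to 0.091 for Reln, -0.061 to 0.021 for Sst and -0.12 to 0.30 for Tac2. For MK-801 in mice with c-MSST they were -0.054 to 0.046 for Lhx6, -0.020 to 0.11 for Npy, -0.044 to 0.24 for Pvalb, -0.035 to 0.17 for Reln and -0.0063 to 0.095 for Sst. For c-MSST in saline mice they were -0.15 to 0.20 for Npy, -0.079 to 0.13 for Reln and -0.022 to 0.080 for Sst, and for c-MSST in MK-801 mice -0.17 to 0.20 for Tac2. In the interaction they were -0.48 to 0.16 for Calb2, -0.015 to 0.33 for Npy and -0.012 to 0.20 for Reln. The correlation of Npy and Calb2 ranged from -0.82 to -0.55.

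Counts over the whole table moved more. In Control+c-MSST against Control the 54 calls became 571 with DESeq2, 25 with voom, 259 and 245 on FPKM, 152, 29 and 0 with the striatal, septal and choroid scores, 0 with only the groups compared, 16 without Control replicates 2 and 3, and 0 to 314 with 1 library left out. DESeq2 called 242, 80, 62 and 38 genes in SCZ against Control, SCZ+c-MSST against Control+c-MSST, SCZ+c-MSST against SCZ and the interaction, where edgeR called 0, and leaving out 1 library gave at most 94, 1, 2 and 1.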
